A study of Homo sapiens with 9 samples.

Results

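The 39 genes described here are cell cycle and replication genes, taken from a fixed list of symbols: cyclins and their kinases, RB1 and E2F factors, CDC25 phosphatases, origin licensing factors, enzymes of DNA synthesis, and mitotic kinases, checkpoint and chromosome proteins. All 39 were found among 19974 protein-coding genes of GRCh38, and their chromatin was read from 3 lists of accessible regions. The lists come from ATAC-seq, which uses the cutting enzyme Tn5 to mark open chromatin. The cells were SK-N-MC, an established Ewing sarcoma line. Cells carried a doxycycline-inducible short hairpin RNA and received 100 ng/ml doxycycline for 48 h. The control hairpin was shScramble, in cells labelled wildtype; shCHD4#1 and shCHD4#2 target CHD4, a chromatin remodelling enzyme that belongs to NuRD, in cells labelled CHD4 knockdown. Each group had 3 biological replicates and 1 deposited list, so differences between groups have no replicate spread, were not tested, and are given as descriptions of these lists.

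A dividing cell passes through its cycle on a relay of cyclin-dependent kinases. D-type cyclins with CDK4 or CDK6 and cyclin E with CDK2 phosphorylate the retinoblastoma protein RB1, which releases E2F transcription factors to switch on genes for DNA replication. Origins of replication are licensed when ORC, CDC6 and CDT1 load the MCM helicase, and cyclin B with CDK1, helped by Aurora and Polo kinases, then drives mitosis. Genes of the replication phase are known for E2F sites in their promoters, and genes of the mitotic phase for CCAAT boxes, bound by NF-Y, and for a short element called CHR, bound by MuvB complexes.

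These promoter elements are shown for 7 members, chosen to stand for both phases and for start regions that differed between lists. RefSeq promoters (GRCh38.p14) were at hand for 33 members, and for 29 of these the table's start lay within 100 bp of the gene's annotated start. The sequences are the 250 bases before the start, 5′ to 3′ on the gene's own strand, with motif matches in capitals. Matches were exact and on both strands, and overlapping matches were counted separately: CCAAT for the CCAAT box, TTTGAA or TTCGAA for CHR, and TTTCCCGC, TTTGGCGC or TTTCGCGC for E2F. E2F1 (minus strand, chr20:33686386-33686635), MCM6 (minus strand, chr2:135876444-135876693) and MCM7 (minus strand, chr7:100101398-100101647) stand for the replication phase. CCNA2 (minus strand, chr4:121823884-121824133), which encodes cyclin A2, is the member with no region in its whole locus with shCHD4#2. CDK1 (plus strand, chr10:60778081-60778330), CDC20 (plus strand, chr1:43358731-43358980) and TOP2A (minus strand, chr17:40417897-40418146) stand for mitosis.

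E2F1: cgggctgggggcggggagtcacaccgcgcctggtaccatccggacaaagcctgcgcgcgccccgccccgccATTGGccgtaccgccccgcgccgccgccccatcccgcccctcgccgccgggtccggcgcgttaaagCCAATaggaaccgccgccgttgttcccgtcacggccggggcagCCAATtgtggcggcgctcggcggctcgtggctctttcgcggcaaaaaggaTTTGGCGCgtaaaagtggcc
MCM6: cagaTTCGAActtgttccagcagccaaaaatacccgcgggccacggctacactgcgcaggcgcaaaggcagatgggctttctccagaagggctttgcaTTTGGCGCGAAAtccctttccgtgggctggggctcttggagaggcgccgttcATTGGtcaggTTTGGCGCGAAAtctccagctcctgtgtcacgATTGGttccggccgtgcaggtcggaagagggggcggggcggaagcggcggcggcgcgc
MCM7: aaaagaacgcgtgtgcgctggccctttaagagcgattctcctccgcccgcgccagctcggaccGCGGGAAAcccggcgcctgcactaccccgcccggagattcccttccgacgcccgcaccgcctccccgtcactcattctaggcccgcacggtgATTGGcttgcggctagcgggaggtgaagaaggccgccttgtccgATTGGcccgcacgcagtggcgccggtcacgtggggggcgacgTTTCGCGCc
CCNA2: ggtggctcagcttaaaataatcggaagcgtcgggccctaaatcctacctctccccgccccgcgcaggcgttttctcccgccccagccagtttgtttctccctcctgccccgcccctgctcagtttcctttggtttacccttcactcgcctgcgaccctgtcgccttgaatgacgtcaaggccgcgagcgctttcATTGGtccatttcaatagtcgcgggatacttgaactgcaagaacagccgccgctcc
CDK1: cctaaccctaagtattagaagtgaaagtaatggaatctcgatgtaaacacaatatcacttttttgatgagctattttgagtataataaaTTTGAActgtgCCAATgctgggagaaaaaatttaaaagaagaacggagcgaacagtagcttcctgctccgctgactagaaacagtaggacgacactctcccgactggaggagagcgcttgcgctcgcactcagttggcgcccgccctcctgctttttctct
CDC20: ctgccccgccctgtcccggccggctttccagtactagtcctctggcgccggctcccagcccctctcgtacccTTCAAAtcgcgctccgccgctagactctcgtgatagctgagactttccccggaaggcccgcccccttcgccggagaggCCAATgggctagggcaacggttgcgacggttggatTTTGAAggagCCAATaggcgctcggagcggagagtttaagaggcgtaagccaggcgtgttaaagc
TOP2A: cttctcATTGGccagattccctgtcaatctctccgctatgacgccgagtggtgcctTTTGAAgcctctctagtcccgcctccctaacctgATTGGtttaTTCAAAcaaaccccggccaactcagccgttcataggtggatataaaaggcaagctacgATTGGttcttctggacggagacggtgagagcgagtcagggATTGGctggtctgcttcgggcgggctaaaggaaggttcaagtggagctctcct

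An E2F match lay in 10 of 29 member promoters, against 3.27% of 13875 promoters of protein-coding genes of the same length. They fell on the replication side of the list. All 3 E2F factor promoters had one, as did 4 of 6 licensing promoters, 2 of 3 promoters of DNA synthesis genes (PCNA and TYMS) and that of CDC25A. None of the 11 promoters of mitotic cyclins and kinases, checkpoint genes and mitotic chromosome proteins had one. MCM6 carried 4 matches in 2 overlapping pairs, and MCM7 carried 2. A CHR match lay in 9 of 29, against 12.1% of all promoters, and 7 of these 9 were mitotic: CCNB2, CDK1, PLK1, BUB1B, CDC20, TOP2A and MKI67. The other CHR matches were in E2F3 and MCM6. A CCAAT box lay in 19 of 29, against 35.2% of all promoters, and 14 of the 29 had at least 2, against 11.9%. In CDC20, a CHR (65 to 60 bases before the start) and a CCAAT box (55 to 51 bases before) lie side by side. The GC content of the 29 promoters had a median of 64.8%, against 62.4% over all. These matches describe the letters in a window and are not evidence of binding.

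Nearly all of the genes had a listed region at an end in every list. A gene end is the window of 1 kb either side of an annotated end, and it is covered when a listed region shares at least 1 bp with it. With shScramble an end was covered at 39 of 39 genes, against 64.8% of all protein-coding genes. The number was 38 with shCHD4#1, against 73% of all genes, and 36 with shCHD4#2, against 68.4%. In all 3 lists together an end was covered at 35 of 39, against 59.1%. Most listed regions are weak: 12.6% with shScramble, 11.9% with shCHD4#1 and 13.1% with shCHD4#2 had an authors' p of at most 0.05. At that limit an end was covered in all 3 lists at 12 of 39 members, against 3310 of 19974 genes. Both ends of a gene were covered at 13, 10 and 12 of 39 in the order shScramble, shCHD4#1, shCHD4#2, against 16.7%, 23.4% and 17%. Since every member started covered, members could only lose a covered end. Of all genes covered with shScramble, 4.52% were not covered with shCHD4#1 and 6.49% not with shCHD4#2, where the members' numbers were 1 and 3 of 39. The strand was at hand for 33 members, so that start and far end could be told apart. The start window was covered at 32, 32 and 30 of 33 in the order shScramble, shCHD4#1, shCHD4#2, against 60%, 68.3% and 65.3% of 15813 genes. Of 32 starts covered with shScramble, 0 were uncovered with shCHD4#1, against 4.72% of all genes, and 3 with shCHD4#2, against 5.55%: CCNA2, ORC1 and AURKB. The far end was covered at 12, 10 and 11 of 33, against 22.3%, 28.7% and 20.8%.

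**Figure D1:**
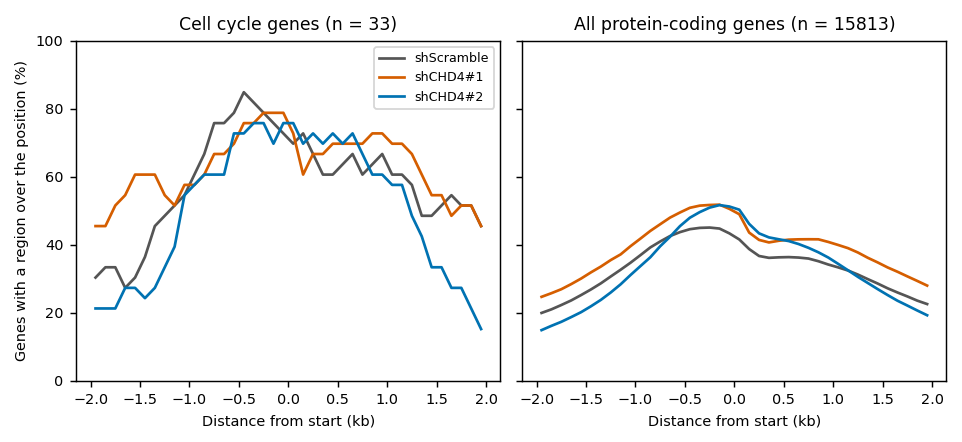
Share of genes (vertical axis, percent) with a listed region over each position from 2 kb upstream to 2 kb downstream of the annotated start (horizontal axis, kb), for 33 cell cycle genes (left) and 15813 protein-coding genes (right), with 1 line per list. The cell cycle curves reach 84.8% with shScramble at 450 bp upstream, and the shCHD4#2 curve is at 15.2% at 1950 bp downstream, where the other lists are at 45.5%.

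Cover around the start was highest at 450 bp upstream with shScramble, and nearer the start with either hairpin. At 450 bp upstream, 84.8% of the 33 genes had a region with shScramble, 75.8% with shCHD4#1 and 72.7% with shCHD4#2, against 44.5%, 50.8% and 47.9% of all genes. At 50 bp upstream, where both hairpin lists were at their highest, the values were 72.7%, 78.8% and 75.8%, against 43.3%, 50.5% and 51.2%. At 50 bp downstream the lists were close, at 69.7%, 72.7% and 75.8%. Away from the start they parted. At 1950 bp downstream 45.5%, 45.5% and 15.2% of the genes were covered, and at 1550 bp upstream 30.3%, 60.6% and 27.3%. Over all genes the shCHD4#2 list was also the lowest at these positions, with 22.5%, 27.9% and 19.2% at the former and 25.2%, 30.0% and 20.1% at the latter.

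The members' loci, each the gene plus 5 kb on both sides, held 144 regions with shScramble, 177 with shCHD4#1 and 143 with shCHD4#2. That is 1.23 and 0.993 times the control number. Summed in the same way over the loci of all protein-coding genes, the numbers were 68251, 92538 and 67819. The whole lists on chromosomes 1 to 22 and X, which also hold regions elsewhere, had 143% and 97.0% of the control's 85775 regions. With shCHD4#1, 19 members had more regions, against 51.2% of all genes, and 8 had fewer, against 17.3%. With shCHD4#2, 9 had more, against 30.7%, 10 had fewer, against 32.9%, and 20 had the same number, against 36.5%. More regions with both hairpins were listed at 8 members, against 25.2% of all genes, and fewer with both at 5, against 13%. On the log2 scale, and after adding 1 to each number, the members' median ratio of regions was 0 with either hairpin, against 0.17 and 0 over all genes. Both comparisons use the same shScramble list. Covered bases, which leave out any region above 20 kb in width or with an authors' value below 0, came to 267 kb, 316 kb and 210 kb. More bases were covered at 28 of 39 loci with shCHD4#1, against 68.3% of all genes with a covered locus, and fewer at 28 of 39 with shCHD4#2, against 67%. The median log2 ratio of covered bases was 0.17 with shCHD4#1 and -0.30 with shCHD4#2, against 0.36 and -0.30 over all genes. The shCHD4#2 value turned to 0.25 when p was limited to 0.05 and to 0.11 among the best 20000 regions of each list, and that of shCHD4#1 was 0.045 and 0.034. Differences of at least 1.5-fold were counted too: with shCHD4#1, 9 members were up, against 37.6% of all genes, and 5 down, against 11.2%. With shCHD4#2, 5 were up, against 12.6%, and 8 down, against 37.3%.

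**Figure D2:**
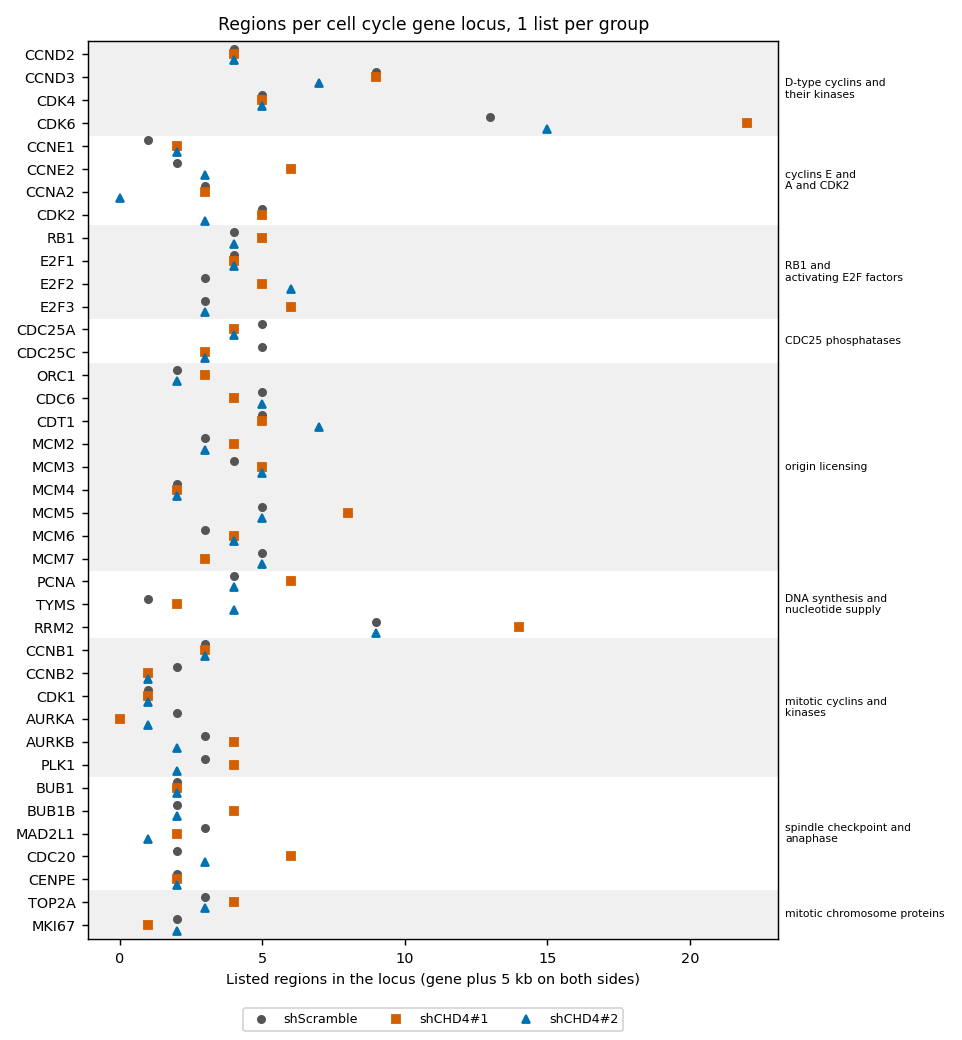
Number of listed regions (horizontal axis) in the locus of each of the 39 genes (vertical axis, grouped by role), with 1 point per list. CDK6 has the most regions in every list (13, 22 and 15), AURKA has 0 with shCHD4#1, and CCNA2 has 0 with shCHD4#2.

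Merging the lists gave 176 regions in the members' loci, of which 86 (48.9%) were in all 3 lists, against 33.0% of 130417 merged regions genome-wide. A further 19 (10.8%) were gained with both hairpins, meaning in both hairpin lists and not in that of shScramble, and 19 (10.8%) were lost with both. Genome-wide these shares were 10.1% and 10.6%. Regions listed with shCHD4#1 only made up 17.0%, against 29.1%. The genome-wide shares include regions far from any gene. Shares over the loci or starts of all protein-coding genes were not computed, so these differences may not be particular to the members. Of the 86 in all 3 lists, 34 lay at a start window, 22 inside genes away from an annotated end, 15 in the flanks, 8 at a far end and 7 at a gene end of unknown strand. The loci held 48 merged regions at start windows and 66 inside genes in all. Of the 66 inside genes, 19 were listed with shCHD4#1 only.

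D-type cyclins and their kinases answer growth signals at the start of the cycle. CDK6 (chromosome 7, 92604921 to 92836573) held 13 regions with shScramble, 22 with shCHD4#1 and 15 with shCHD4#2, and covered bases of 23.2 kb, 34.7 kb and 18.1 kb. It is the longest member locus, and 4 regions gained with both hairpins lay inside it. At its start, each list had a region within the gene, downstream of the start itself. CDK4 had 5 regions in each list, and CCND2, which encodes cyclin D2, had 4 in each. At CCND2 (chromosome 12) the higher-coordinate end, position 4305353, was covered with shScramble alone, the nearest hairpin regions being 1918 bp and 2118 bp away. A region of 5330 bp inside CCND2 (4279881 to 4285210) was gained with both. CCND3, of cyclin D3, had 9, 9 and 7 regions, and its widest end region was 4310 bp with shScramble, 7570 bp with shCHD4#1 and 7400 bp with shCHD4#2. That was the widest end region of any member in both hairpin lists. In all 3 lists it lay at the far end and was weak, with an authors' p of 0.951, 0.949 and 0.954.

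Cyclins E and A and CDK2 carry the cell into replication. CCNA2 (chromosome 4, 121816444 to 121823883) had 3 regions with shScramble, 3 with shCHD4#1 and 0 with shCHD4#2. With shScramble, a region of 1390 bp lay over the start and touched one of 1700 bp within the gene, and with shCHD4#1 a region of 720 bp lay over the start and the CCAAT box printed above. In the shCHD4#2 list the nearest region was 22093 bp from the start. The control regions there were weak in their own list: the better one had an authors' p of 0.41, and that of shCHD4#1 one of 0.0376. CCNE2, of cyclin E2, had 2, 6 and 3 regions, and its best end region stood at the 4.80% point of the shScramble list, 7.84% with shCHD4#1 and 46.6% with shCHD4#2. CCNE1, of cyclin E1, had 1, 2 and 2. Its shScramble region began 120 bp downstream of the start and was lost with both hairpins, while a region upstream and a short one over the start were gained with both. All were weak. The lost region had an authors' p of 0.843, the upstream ones 0.949 and 0.954, and the short ones 0.412 and 0.322. CDK2 had 5, 5 and 3 regions, with a well-ranked region at its higher-coordinate end in every list (1.87%, 2.74% and 0.166%).

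RB1 and the activating E2F factors form the switch at the entry to replication. E2F3 had the best-ranked end region of all members with shScramble, number 88 in its list, and with shCHD4#1, number 165; with shCHD4#2 it was number 1260. This region spanned 3510, 3330 and 3630 bp, reaching about as far upstream in each list (3368, 2958 and 3158 bp). E2F3 had 3, 6 and 3 regions. E2F2 had 3, 5 and 6, and a merged region of 338 bp just downstream of its start was gained with both hairpins. The regions there had an authors' p of 0.7725 with shCHD4#1 and 0.568 with shCHD4#2. E2F1 had 4 in each list. Its E2F match was covered with both hairpins, while the upstream shScramble region stopped short of it, and the region at its far end was absent with shCHD4#1. RB1 had 4, 5 and 4 regions in 178140 bp, and its start region ran from 720 bp upstream to just short of the start with shScramble, and past the start by 169 bp with shCHD4#1 and 179 bp with shCHD4#2.

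The CDC25 phosphatases, which remove the inhibitory phosphates of cyclin-dependent kinases, had fewer regions in the full lists at both genes with each hairpin. CDC25A had 5, 4 and 4 regions, and CDC25C had 5, 3 and 3. Covered bases were 5.82, 4.38 and 2.62 kb at CDC25A and 12.1, 6.51 and 5.70 kb at CDC25C. Their starts were covered in all 3 lists. The far end of CDC25C was covered with shScramble only, by a region with an authors' p of 0.477.

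Origin licensing genes, 9 in number, had 34 regions with shScramble, 38 with shCHD4#1 and 38 with shCHD4#2. CDC6, which recruits the helicase, had a start region at the 0.592% point of the shScramble list, 1.13% with shCHD4#1 and 1.03% with shCHD4#2. ORC1 (chromosome 1, 52372829 to 52409503), the largest subunit of the origin recognition complex, had a region of 2930 bp over its annotated start with shScramble and one of 4090 bp with shCHD4#1. With shCHD4#2 its nearest region was 4073 bp from the start. At CDT1, the partner of CDC6 in loading, the start window was covered with shCHD4#2 only, and region numbers were 5, 5 and 7. The start regions of both genes were weak. At ORC1 the authors' p was 0.118 with shScramble and 0.209 with shCHD4#1, and at CDT1 it was 0.906 and 0.680 with shCHD4#2. When p was limited as above, neither ORC1 nor CDT1 had a covered end in any list. At MCM2, a helicase subunit, shScramble had a region beginning just downstream of the start and another ending upstream of it, whereas with either hairpin a single region (2550 bp and 2170 bp) spanned the start. These regions stood at the 1.66% point with shCHD4#1 and 1.56% with shCHD4#2, and the best with shScramble at 16.5%. MCM5, another subunit, had 5, 8 and 5 regions. Its end region stood at 4.92% with shScramble and 7.39% with shCHD4#1. That region was absent with shCHD4#2, where a separate one beside it stood at 41.0%. MCM4 had 2 in each list, and MCM3 had 4, 5 and 5. MCM6 had 3, 4 and 4, and at its far end a region of 2400 bp was lost with both hairpins beside one of 780 bp gained with both. The region over the E2F and CCAAT matches of MCM6 was listed in all 3. MCM7 had 5, 3 and 5 regions, and the region over its start was listed in each, as number 3275, 2931 and 1252.

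Genes of DNA synthesis and nucleotide supply had 14, 22 and 17 regions. TYMS, thymidylate synthase, had 1 region with shScramble, 2 with shCHD4#1 and 4 with shCHD4#2. A region beginning inside the gene, downstream of the start, was gained with both, with an authors' p of 0.213 and 0.176. RRM2, a ribonucleotide reductase subunit, had 9, 14 and 9, and its RefSeq gene model spans 88443 bp. PCNA, the sliding clamp, had 4, 6 and 4. Its widest end region with shScramble, 6610 bp, was the widest of any member in that list. It lay at the far end and had an authors' p of 0.951. The far-end region was 2740 bp with shCHD4#1 and 2030 bp with shCHD4#2. The region over the start differed little, at 2410, 2470 and 2460 bp.

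**Figure D3:**
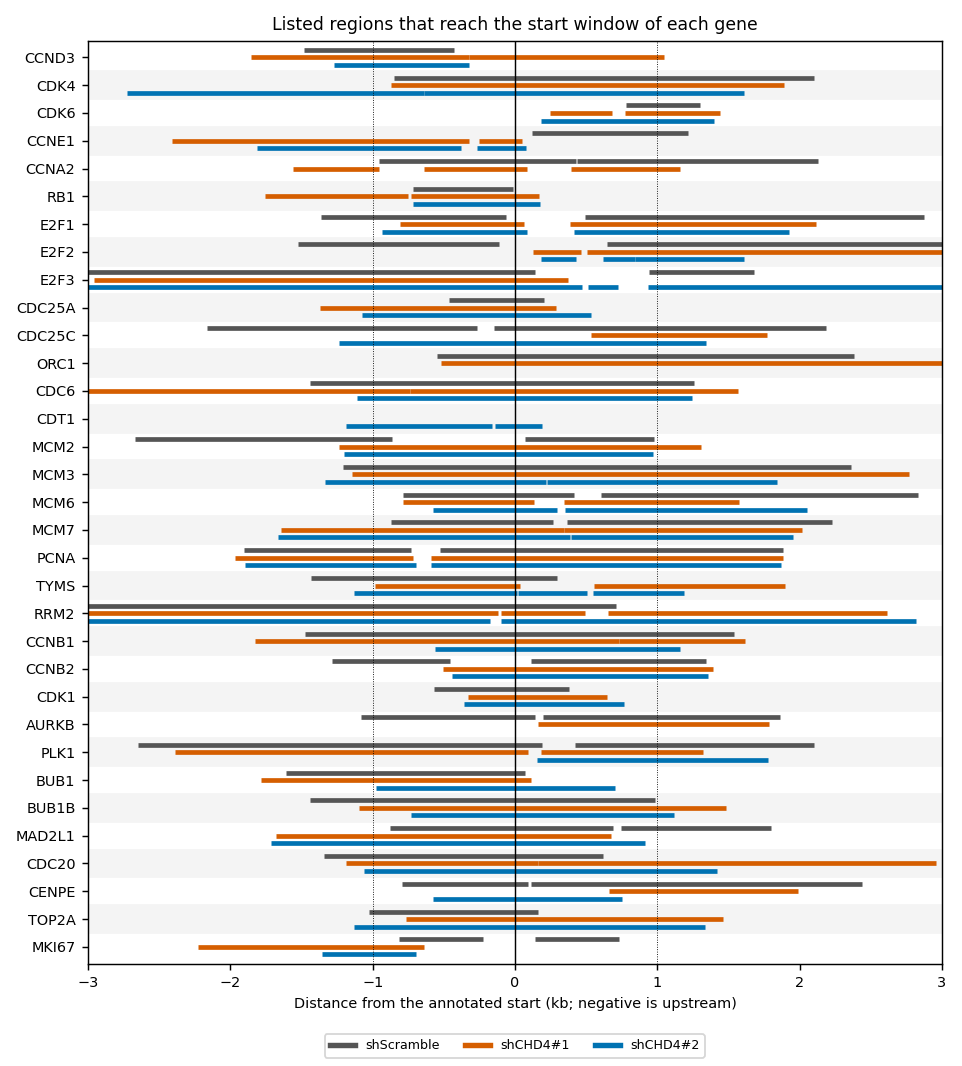
Listed regions (horizontal bars) that reach within 1 kb (dotted lines) of the annotated start (solid line) of 33 genes with known strand, in kb from the start, cut at 3 kb and coloured by list. ORC1, CCNA2 and AURKB have no shCHD4#2 bar, and CDT1 has a shCHD4#2 bar alone.

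Mitotic cyclins and kinases had 14 regions with shScramble, 13 with shCHD4#1 and 10 with shCHD4#2. The Aurora kinase genes differed in cover, AURKA with shCHD4#1 and AURKB with shCHD4#2. AURKA (chromosome 20, 56369390 to 56392215), the kinase of spindle poles, had 2, 0 and 1 regions. With shCHD4#1 the nearest region to its higher-coordinate end was 28465 bp away, and CSTF1, which ends 164 bp from AURKA, had no covered end in that list either. The shScramble regions there stood at the 36.8% point of their list, and the shCHD4#2 region at 3.88%. AURKB (chromosome 17, 8204731 to 8210575), the kinase of the chromosomal passenger complex, had 3, 4 and 2 regions. Its region over the start, 1230 bp wide with an authors' p of 0.0092 with shScramble, was lost with both hairpins. With shCHD4#1 a region just downstream of the start remained, and with shCHD4#2 the nearest was 1135 bp away. CCNB1, of cyclin B1, had 3 regions in each list, with the start window reached by 1, 2 and 1 of them, and its best start region stood at 3.70%, 3.09% and 2.67%. CDK1 had a single region in each list, of 950, 980 and 1130 bp over its start. CCNB2 had 2, 1 and 1, and PLK1, the Polo-like kinase, had 3, 4 and 2.

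Spindle checkpoint and anaphase genes had 11, 16 and 10 regions, and every one kept a covered start. CDC20, the activator of the anaphase-promoting complex, had 2, 6 and 3 regions and 2133, 7003 and 5033 bp covered. The region over its adjacent CHR and CCAAT matches stood at 0.780% with shScramble, 2.82% with shCHD4#1 and 0.709% with shCHD4#2. MAD2L1, a checkpoint protein, had 3, 2 and 1 regions, but 1 in each list among those that the authors' names call primary. Its best start region stood at 14.0%, 13.8% and 13.3%. The checkpoint kinase genes BUB1 and BUB1B had 2, 2 and 2, and 2, 4 and 2. A region of 404200 bp with a negative authors' value, identical in the 3 lists, makes up 1 of the 2 at BUB1. CENPE, a kinetochore motor, had 2 in each.

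TOP2A and MKI67 encode mitotic chromosome proteins and are widely used proliferation markers. At TOP2A, DNA topoisomerase II alpha, the region over the start measured 1190 bp with shScramble, 2230 bp with shCHD4#1 and 2470 bp with shCHD4#2. It was number 421 of the shScramble list and number 913 of the shCHD4#2 list, but number 117535 of 122869 with shCHD4#1, with an authors' p of 0.949. TOP2A had 3, 4 and 3 regions. MKI67, which encodes Ki-67, had 2, 1 and 2, and its best end region stood at 27.7%, 50.4% and 48.1%.

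**Figure D4:**
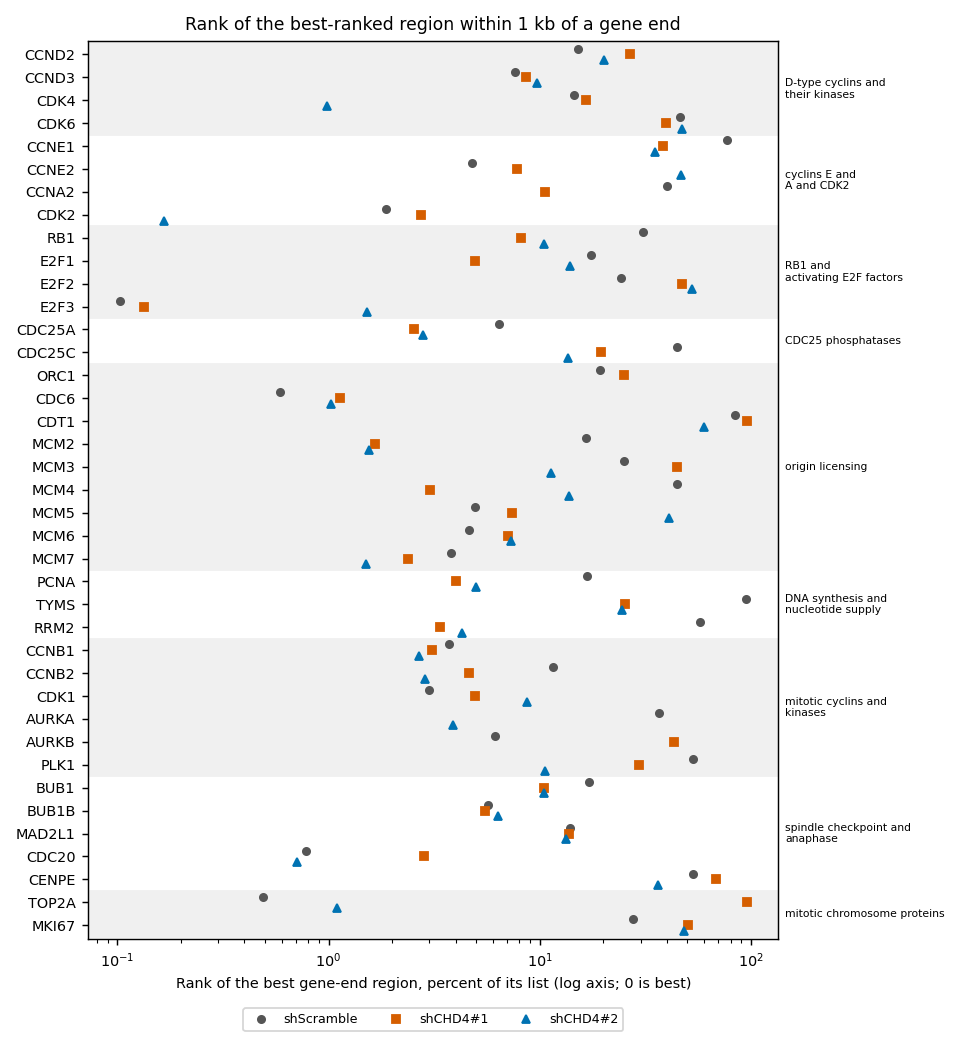
Rank of the best region within 1 kb of a gene end, as a percent of its own list (horizontal log axis, low is best), for each of the 39 genes (vertical axis, by role), with 1 point per list. E2F3, CDC6 and CDC20 lie below 3% in every list, and the shCHD4#1 point of TOP2A is at 95.7%.

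The regions' own scores separate strong from weak members. The best end region of a member ranked at the 16.5% point in the median with shScramble, 8.39% with shCHD4#1 and 10.1% with shCHD4#2, against 22.6%, 18.5% and 16.0% over all genes with such a region. Ranks in lists of unequal length show no change by themselves. When the regions were limited to those with an authors' p up to 0.05, an end was covered at 16, 22 and 22 members, against 22.8%, 27.7% and 29.5% of all genes. There, 12 of 39 members were covered in all 3 lists, among them CDC20, CDC6, CDK1, CCNB1 and E2F3, and 11 in none. Of all 19974 genes, 3310 were covered there in all 3 lists and 12603 in none. The members covered in both hairpin lists only were RRM2, BUB1, MCM2, RB1 and PCNA, 5 of 39 against 5.72% of all genes. AURKB was the 1 member covered there in the shScramble list only, against 2.02%. Among the best 20000 regions of each list, an end was covered at 24, 23 and 27 members, against 31.9%, 33.2% and 40.3%.

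The widest region at either end of a gene can lie at different ends in different lists, as at PCNA. It was wider than with shScramble at 22 of 38 members with shCHD4#1, against 56.5% of all genes, and narrower at 16, against 43.1%. With shCHD4#2 it was wider at 21 of 36, against 42.1%, and narrower at 14, against 57.3%. Once touching regions were joined, these shCHD4#2 numbers were 18 and 17. The median log2 ratio of the widest end region was 0.16 with shCHD4#1 and 0.19 with shCHD4#2, against 0.11 and -0.13 over all genes.

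A further 92 cell cycle genes included CDK inhibitors, other RB and E2F family members, MuvB subunits, replisome and mitosis genes. An end was covered at 83 with shScramble, 88 with shCHD4#1 and 86 with shCHD4#2, against 64.8%, 73% and 68.4% of all genes. Both hairpin lists had more regions than the control at 16 of the 92 and fewer at 24, where the same background shares of 25.2% and 13% apply. E2F4, a repressive E2F, had 0 regions with shScramble, 5 with shCHD4#1 and 2 with shCHD4#2. BIRC5, of survivin, had 0, 2 and 2, and both genes gained a covered end with each hairpin. CDC27, a subunit of the anaphase-promoting complex, had 1, 2 and 4, and the CDK inhibitor gene CDKN1C had 2, 5 and 4. Fewer regions were listed at CENPF, of a kinetochore protein (8, 3 and 2), and at E2F7, another repressive E2F (4, 3 and 1).

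Of the whole series, CHD4 itself had 6, 9 and 7 regions and a covered end in each list, which does not measure its silencing. Of 7 Ewing sarcoma genes (NR0B1, NKX2-2, CCND1, CD99, STEAP1, PAX7 and LIPI), an end was covered at 6, 7 and 6. Gene ends of other cell types were covered as well, with 3, 3 and 2 of 4 blood genes, 1, 1 and 1 of 3 endothelial genes, and 0, 1 and 1 of 3 liver genes, so that an accessible end is not expression. At 15 members another protein-coding gene ends within 1 kb of the member's end, and a region there belongs to both.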

How the data were processed

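ATAC-seq was run on 9 SK-N-MC samples, with 100000 cells mixed with 100 Drosophila S2 cells, per the labels' protocols. The builds GRCh38 and dm6 and the tools deepTools 3.2.1, SAMtools 1.9, BWA, Trimmomatic 0.36 and FastQC 0.11.7 are named in the submitters' processing notes. Not given in the sources used here: the peak caller, a Tn5 shift and any spike-in scaling. The deposited lists carry the name of ChIP-R, which combines replicates' peaks, and are filed under replicate 1 of each group; treating them as combined lists is an inference. Each deposited region has the authors' p-value, their q-value and 2 columns of scores. The lists hold no read counts, so depth is unknown; a deeper library would list more weak regions.

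Regions on chromosomes 1 to 22 and X were compared with RefSeq genes (GRCh38.p14) in Python 3.11.15. Members and gene lists were chosen with earlier results of these data known. All members are named; of the other cell cycle genes, the 6 with the largest mean change in the same direction with both hairpins. No test between groups could be run. The overlap, base and width measures were tested on simulated regions, and all 6000 values of each were recovered. Restricting regions, windows and loci were tried as alternatives.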

Additional observations from a re-analysis of the deposited data

How the results depend on the processing

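No paired analysis was possible because each group has 1 list, and for the same reason no replicate was left out in turn. Of 102 alternative values, 76 kept within 1.5 times a count or 0.1 on the log2 scale, 24 moved and 2 reversed. The reversed values were the median log2 ratios of covered locus bases with shCHD4#2, -0.30 as reported, 0.25 when p was limited to 0.05 and 0.11 with the best 20000 regions per list. The cause was not tested, though both settings keep fewer regions. The median log2 ratios of end-window bases were 0.06 with shCHD4#1 and 0.11 with shCHD4#2 before any restriction. In what follows, values are in the order shScramble, shCHD4#1, shCHD4#2, or shCHD4#1, shCHD4#2.

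Shares over all genes under these settings were computed for end cover only, so the numbers with more or fewer regions have no background here. With a p of at most 0.05, members with a covered end numbered 16, 22 and 22, against 22.8%, 27.7% and 29.5% of all genes. Those with fewer regions numbered 2 and 4, and those with fewer with both 1. The median log2 ratio of locus bases was 0.045 with shCHD4#1, and of end-window bases 0.28 with shCHD4#2. With the best 20000 regions, a covered end was found at 24 members with shScramble and 23 with shCHD4#1, against 31.9% and 33.2% of all genes. More regions were found at 10 with shCHD4#1, fewer at 5 and 4, and fewer with both at 3. The median log2 ratio of locus bases was 0.034 with shCHD4#1, and of end-window bases 0.37 with shCHD4#2. With loci extended by 50 kb, more regions were found at 28 and 13 members, and fewer at 5 and 20. Regions numbered 0.26 more on the log2 scale in the median with shCHD4#1. Another alternative, chosen after seeing the data, kept the regions that the authors' names call primary. Ends were then covered at 24 members with shScramble and 25 with shCHD4#1, against 31.4% and 38.1% of all genes. Regions were more numerous at 15 and 12, and fewer at 3 and 4. With both hairpins they were more numerous at 8 and fewer at 2. Joining touching regions and leaving out wide regions from end cover were also added after seeing the data and moved no count by over 1.5 times. Without read counts, a weak region present in a deeper library cannot be told from one that opened.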
